A study of Schizosaccharomyces pombe with 6 samples.

Results

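The genes of the cytosolic ribosomal proteins of fission yeast (Schizosaccharomyces pombe) were examined in a map of Rad52 on chromatin. They were chosen as the protein-coding nuclear genes whose symbol is rpl (large subunit) or rps (small subunit) followed by a digit. The annotation holds 131 such genes, 76 of the large and 55 of the small subunit. In the right part of chromosome I, array and reference positions disagree, and the 15 that lie there were left out. Of the 116 others, 34 had 1 probe inside and 5 had 0, counting only probes that were outlier-marked on no array. The remaining 77 genes, 44 of the large and 33 of the small subunit, had at least 2 probes with their centre inside the gene on every array, and they stand among 4125 measured protein-coding genes. All results are about these 77 unless the text says otherwise.

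The strains were rad3-deleted cdc25-22 cells (n = 3 arrays) and cdc25-22 cells (n = 3 arrays). Both therefore carried cdc25-22, a temperature-sensitive allele of the phosphatase that starts mitosis, and no strain with an intact cdc25 gene is part of the comparison. Per the labels, cells of both strains stood at 36.5 °C for 4 h, a temperature that blocks this allele, and were then moved to 25 °C in the presence of 6 mM hydroxyurea, a drug that lowers the supply of nucleotides to replication. The label for the molecule reads total RNA, while the channels are labelled as input and immunoprecipitate. The labels do not say whether replicates came from separate cultures, so p-values measure the spread between these arrays, which may be technical.

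Each ribosomal protein is needed in equal number, and fission yeast makes most of them from a pair or a trio of genes at separate places of the genome, among the most strongly transcribed genes of a growing cell. Their promoters often hold HomolD, a short element that takes the place of a TATA box, and HomolE, a second element upstream of it. Rad52 acts in homologous recombination, the repair of DNA by copying a matching sequence, and Rad3, the ATR-like kinase, signals stalled replication.

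The promoters of 3 of the genes with the highest and the 3 with the lowest Rad52 ratio in cdc25-22 cells are printed to show these elements in genes from both ends of the range. Each stretch runs 5′ to 3′ toward the annotated start of the gene, in RefSeq build ASM294v3, up to 250 bp or to the next protein-coding transcript (the highest gene, rps3, has fewer than 100 free bases and is not shown), and capitals mark HomolD (CAGTCACA) and the middle of HomolE (CCCTACCCT), searched on both strands.
rpl1702 (chrIII:482831-483080, minus strand): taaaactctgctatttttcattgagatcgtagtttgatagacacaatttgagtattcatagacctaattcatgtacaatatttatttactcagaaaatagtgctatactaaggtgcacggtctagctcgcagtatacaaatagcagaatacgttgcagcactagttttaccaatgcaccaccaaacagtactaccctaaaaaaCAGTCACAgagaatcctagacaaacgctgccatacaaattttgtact
rpl1701 (chrII:1734010-1734224, minus strand): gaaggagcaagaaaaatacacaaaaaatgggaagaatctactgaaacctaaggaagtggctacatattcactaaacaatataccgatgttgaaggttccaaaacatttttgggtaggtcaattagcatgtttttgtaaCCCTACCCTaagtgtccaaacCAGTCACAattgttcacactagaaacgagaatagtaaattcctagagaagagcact
rpl3001 (chrI:1974084-1974333, minus strand): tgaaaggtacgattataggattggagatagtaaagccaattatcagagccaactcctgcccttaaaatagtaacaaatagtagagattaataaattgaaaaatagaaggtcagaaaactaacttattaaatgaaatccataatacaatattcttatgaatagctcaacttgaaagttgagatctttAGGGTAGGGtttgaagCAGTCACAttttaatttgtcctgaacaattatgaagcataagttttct
rpl1902 (chrIII:400503-400752, plus strand): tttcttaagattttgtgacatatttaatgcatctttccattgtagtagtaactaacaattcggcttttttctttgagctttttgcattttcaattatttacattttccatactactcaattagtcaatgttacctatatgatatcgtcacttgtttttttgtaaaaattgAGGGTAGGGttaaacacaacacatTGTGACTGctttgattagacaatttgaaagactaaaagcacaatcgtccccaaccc
rps1601 (chrII:1793687-1793936, plus strand): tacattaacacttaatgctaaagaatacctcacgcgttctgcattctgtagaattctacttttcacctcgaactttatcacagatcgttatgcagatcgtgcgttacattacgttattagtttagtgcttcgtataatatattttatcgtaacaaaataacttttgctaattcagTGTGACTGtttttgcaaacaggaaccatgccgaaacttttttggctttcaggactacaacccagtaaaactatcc
rps1702 (chrIII:917602-917851, plus strand): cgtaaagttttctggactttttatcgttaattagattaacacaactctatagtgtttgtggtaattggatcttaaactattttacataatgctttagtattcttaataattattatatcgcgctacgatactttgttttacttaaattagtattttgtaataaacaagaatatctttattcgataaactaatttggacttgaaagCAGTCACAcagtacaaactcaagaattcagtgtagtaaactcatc

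HomolD stood within the 250 bp before the start in 49 of the 77 genes (63.6%), against 1.0% of the other nuclear protein-coding genes. The middle of HomolE stood there in 25 (32.5%), against 0.582% of the others. In the printed stretches, HomolD began at position -47 from the start of rpl1702, -56 of rpl1701, -48 of rpl3001, -56 of rpl1902, -75 of rps1601 and -45 of rps1702. Both ends of the range thus carried the element.

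The measure throughout is the log2 ratio of Rad52 immunoprecipitate over input, with the median probe of each array at 0, so that 1 stands for 2 times the ratio of the median probe. A gene's value is the mean of its probes. The placement of the scanner files matters for every comparison of the strains. The files listed for replicates 1 and 2 equal the value-table columns of the other strain, and here each file was placed with the column it equals. Of 33 probes inside rad3, 9, 10 and 9 were not well above background in either channel on the 3 arrays placed as rad3-deleted, against 0, 0 and 0 on the 3 placed as cdc25-22. For cdc25-22 replicate 3 no column matched the scanner file, which was kept under its label. With the files as listed, 0 of the 77 genes passed the test in either strain or between the strains. The share of all genes called under that placement is not given. No array was a control immunoprecipitate, and the dyes were never exchanged, so enrichment within a strain cannot be told apart from unspecific or dye-related signal. Median signals over all probes were 583.5 to 675.0 in the immunoprecipitate channel of the rad3-deleted arrays, against 580.0 to 1211.0 on the cdc25-22 arrays. Of 271 probes inside all area genes of the family, rad3-deleted replicate 2 had 57 not well above background, against 4 to 13 on the other 5 arrays. Outlier-marked were 26 of them on cdc25-22 replicate 3, against 0 to 4 on the other 5 arrays. A probe marked on any array was left out on all, so which genes were measured depends in part on that array.

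In rad3-deleted cells the ribosomal protein genes as a set lay at the array median, and in cdc25-22 cells slightly above it. The family's median was 0.17, -0.04 and -0.22 on rad3-deleted replicates 1, 2 and 3, against 0.16, 0.15 and 0.11 on cdc25-22 replicates 1, 2 and 3. The rad3-deleted arrays thus spread to both sides of 0, and the cdc25-22 arrays stayed together. In rad3-deleted cells 14 of 77 genes were higher than the array median (18.2%, with 20.1% of all genes called) and 12 were lower (15.6%, with 20.6% of all genes called), by limma with a Benjamini-Hochberg threshold of 0.05. These shares are close to the background, though the median gene of the family rests on 2 probes, against 6 for all genes. In cdc25-22 cells 7 genes were higher (9.09%, with 2.01% of all genes called) and 0 were lower (with 0.267% of all genes called). At an unadjusted p under 0.05, limma gave 31 higher and 2 lower (40.3% and 2.6%, with 10.3% and 6.91% of all genes). The median over the 77 genes was -0.03 in rad3-deleted cells and 0.18 in cdc25-22 cells, beside -0.03 and -0.00 over all genes. In cdc25-22 cells 37 of the 77 (48.1%) lay above the median on all 3 arrays, against 23.2% of all genes. The count of 7 changed when 1 array was left out: it was 0 without cdc25-22 replicate 1 or replicate 2 and 3 without replicate 3. It was also 0 with the value table in place of the scanner files. The rad3-deleted counts were 9 higher and 5 lower without rad3-deleted replicate 3 and 6 lower without its replicate 2. Shares of all genes called in these alternative fits are not given, so the counts cannot be read against a background.

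The ratio differed between genes of the 2 strands. This was seen in the values and is given as a description. The 37 genes on the minus strand of the reference had a median of 0.13 in rad3-deleted cells and 0.30 in cdc25-22 cells. The 40 on the plus strand had -0.19 in rad3-deleted cells and 0.01 in cdc25-22 cells. Array by array, the minus-strand median exceeded the plus-strand median by 0.28, 0.12 and 0.55 in rad3-deleted cells and by 0.30, 0.36 and 0.17 in cdc25-22 cells. Minus-strand genes were thus higher on all 6 arrays. Among the other genes the same difference was 0.02, -0.04 and 0.08 in rad3-deleted cells and 0.07, 0.09 and 0.01 in cdc25-22 cells.

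All 7 genes called higher in cdc25-22 cells lay on the minus strand, and so did 12 of the 14 called higher in rad3-deleted cells. Of the 12 called lower in rad3-deleted cells, 10 lay on the plus strand. The other genes had 461 plus-strand (22.8%) and 376 minus-strand genes (18.5%) called lower there, a lean to the same side. Among the other genes, 54 minus-strand (2.66%) and 22 plus-strand genes (1.09%) were called higher in cdc25-22 cells, a lean to the same side, and 405 and 410 in rad3-deleted cells. In the order of cdc25-22 means, the first 16 genes were all on the minus strand, and 18 of the 20 lowest were on the plus strand. Above 0 lay 29 of 37 minus-strand and 6 of 40 plus-strand genes in rad3-deleted cells, and 35 of 37 and 20 of 40 in cdc25-22 cells. Of the other genes, 945 of 2030 on the minus and 882 of 2018 on the plus strand lay above 0 in rad3-deleted cells, and 1185 and 812 in cdc25-22 cells.

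**Figure D1:**
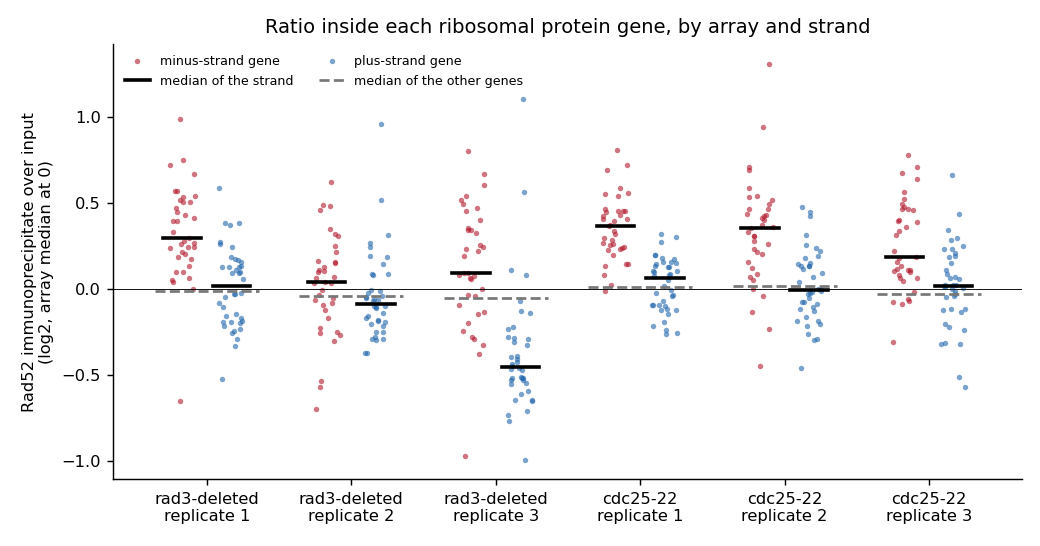
Log2 ratio of Rad52 immunoprecipitate over input inside each of the 77 ribosomal protein genes, by array, with rad3-deleted arrays on the left and cdc25-22 arrays on the right. Red points are the 37 minus-strand genes, blue points the 40 plus-strand genes, black bars their medians and dashed grey lines the median of the 4048 other genes; the red median lies above the blue one on all 6 arrays.

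Chromatin DNA is double-stranded, while each array probe is a single strand, and all probe names run from the lower to the higher position. Which strand a probe carries is not given in the sources used here. The input channel differed by strand as well: relative to the array's median probe, its log2 intensity had a median of -1.11 (minus strand) and 0.20 (plus strand) in rad3-deleted cells, and -0.90 and 0.33 in cdc25-22 cells. Among the other genes these medians were -0.21 and 0.08 in rad3-deleted cells and -0.18 and 0.11 in cdc25-22 cells. The immunoprecipitate channel of the family leaned the same way. Its medians were -0.96 (minus) and 0.06 (plus) in rad3-deleted cells and -0.75 and 0.28 in cdc25-22 cells. Minus-strand genes thus had less signal in both channels, and the strands lay further apart in the input. Intensities of one channel also depend on the probe's sequence. Over all 77 genes, input level and ratio had Spearman's rho of -0.26 in rad3-deleted and -0.47 in cdc25-22 cells. Within the minus-strand genes it was 0.09 in rad3-deleted cells and -0.16 in cdc25-22 cells (37 genes of the same arrays), and within the plus-strand genes 0.09 and -0.05 (40 genes). Among the other genes it was 0.02 and -0.35 on the minus strand and 0.15 and -0.21 on the plus strand. The stretches under the probes of minus-strand genes held 35.4% A and 27.8% T on the plus strand of the reference, against 28.0% A and 31.9% T for plus-strand genes. With the trend of the ratio on base composition removed from each array, the minus-strand median exceeded the plus-strand one by 0.21 in rad3-deleted cells and 0.21 in cdc25-22 cells, against 0.32 and 0.29 before removal. When 1 array was left out, the difference before removal was 0.24 to 0.50 in rad3-deleted and 0.23 to 0.36 in cdc25-22 cells. Any part of the probe strand, the labelling or RNA in the samples in this pattern was not tested.

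Among the highest genes, rpl3602, rpl3001 and rps3 stood out in different ways. The gene rpl3602, 1 of 2 genes of the large-subunit protein L36, was the highest in rad3-deleted cells, with 0.59, 0.96 and 1.10 on the 3 arrays, against -0.21, 0.07 and -0.00 in cdc25-22 cells. It was an exception among the plus-strand genes. The gene rpl3001, which encodes eL30, a large-subunit protein whose baker's yeast counterpart represses the splicing of its own transcript, had 0.67, 0.62 and 0.80 in rad3-deleted cells and 0.72, 0.41 and 0.39 in cdc25-22 cells. It was high on all 6 arrays and passed the test in both strains (limma, adjusted p = 0.000196 in rad3-deleted and 0.013 in cdc25-22 cells). The gene rps3, whose product uS3 sits where messenger RNA enters the small subunit, had 0.50, 0.31 and 0.51 in rad3-deleted cells, against 0.81, 1.31 and 0.48 in cdc25-22 cells. It was the highest gene in cdc25-22 cells, with a mean of 0.86 ± 0.42 (SD, n = 3, limma adjusted p = 0.00712), and it lies within 1 kb of the small RNA gene snR48.

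Other genes were called higher in one strain or in both. In rad3-deleted cells rpl3202 had a mean of 0.64 ± 0.37, rps2202 of 0.59 ± 0.14 and rps3002 of 0.46 ± 0.23 (SD, n = 3). Each passed the test there (limma adjusted p = 0.00171, 0.000789 and 0.00296), as did rpl2101 at 0.41 ± 0.17 and rpl502 at 0.37 ± 0.18 (adjusted p = 0.0034 and 0.00625). Rpl5, the product of rpl502, binds the smallest ribosomal RNA before it joins the large subunit. In cdc25-22 cells the other 6 genes called were rpl1702 (0.53 ± 0.14), rpl1701 (0.52 ± 0.05), rpl3001, rps2602 (0.49 ± 0.15), rpl3802 (0.48 ± 0.28) and rps3002 (0.44 ± 0.06). Both copies of rpl17 are among them, and their product uL22 lines the tunnel through which the new protein leaves the ribosome. The gene rpl402, for uL4 of the same tunnel, had 0.45, 0.94 and 0.11 in cdc25-22 cells and did not pass (adjusted p = 0.0827). It passed with the slide as a block (adjusted p = 0.0414).

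At the low end, 12 genes were called in rad3-deleted cells and 0 in cdc25-22 cells. The gene rpl15 had -0.19, -0.29 and -0.99 in rad3-deleted cells, against -0.12, -0.07 and -0.04 in cdc25-22 cells. The gene rpl1101, for uL5, a partner of Rpl5, had 0.14, -0.57 and -0.97 in rad3-deleted cells, against 0.25, -0.04 and -0.02 in cdc25-22 cells. Its rad3-deleted replicate 1 lay among the cdc25-22 values. The small-subunit genes rps1201 and rps403 had means of -0.42 ± 0.18 and -0.41 ± 0.21 in rad3-deleted cells (limma adjusted p = 0.00469 and 0.00555), against -0.11 ± 0.16 and -0.09 ± 0.12 in cdc25-22 cells. The lowest genes in cdc25-22 cells did not pass the test there: rpl1902 had -0.22 ± 0.18 in rad3-deleted and -0.25 ± 0.18 in cdc25-22 cells, and rps1601 had -0.14 ± 0.36 and -0.22 ± 0.30. The next 2, rps1702 and rpl1801, had -0.20 ± 0.09 and -0.13 ± 0.16 in cdc25-22 cells.

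Medians of the large and the small subunit were compared array by array. The large-subunit median minus the small-subunit median was 0.09, 0.01 and 0.15 on the rad3-deleted arrays and 0.05, -0.01 and -0.01 on the cdc25-22 arrays. Of 44 large-subunit genes, 9 were called higher and 7 lower in rad3-deleted cells (20.5% and 15.9%). Of 33 small-subunit genes, 5 were called higher and 5 lower there (15.2% and 15.2%), with 20.1% and 20.6% of all genes called. In cdc25-22 cells 4 large-subunit and 3 small-subunit genes were called higher (9.09% each, with 2.01% of all genes called). Within the minus strand, the subunits had medians of 0.15 (large) and 0.13 (small) in rad3-deleted cells and 0.31 (large) and 0.30 (small) in cdc25-22 cells. Within the plus strand they were -0.10 (large) and -0.21 (small) in rad3-deleted cells and -0.01 (large) and 0.03 (small) in cdc25-22 cells. The large subunit thus lay above the small one on all 3 rad3-deleted arrays, by amounts that varied with strand, and on 1 of the 3 cdc25-22 arrays.

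Between the strains, the share of ribosomal protein genes called higher lay below that of all genes, and the share called lower was close to it. The median gene of the family rests on 2 probes, against 6 for all genes, so these shares are not like for like. Rad3-deleted minus cdc25-22, 1 gene was higher (1.3%, with 10.7% of all genes called) and 4 were lower (5.19%, with 5.12% of all genes called). The median difference was -0.17 over the 77 genes and -0.06 over all genes. The 3 arrays of the strains did not overlap in 14 genes: the rad3-deleted arrays were above in 2 (with 18.0% of all genes) and below in 12 (15.6%, with 21.9% of all genes). The input channel alone gave 0 genes in either direction by limma, with 0 higher and 1 lower at an unadjusted p under 0.05.

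The 1 gene that was higher was rpl3602, with a difference of 0.93 (95% interval 0.61 to 1.25, limma adjusted p = 0.00206). The 4 lower ones were also of the large subunit. The gene rpl35, for a protein at the exit of the tunnel, had -0.65, -0.54 and -0.20 in rad3-deleted cells, against 0.24, 0.59 and 0.11 in cdc25-22 cells, a difference of -0.77 (adjusted p = 0.00828). Its arrays did not overlap between the strains. The gene rpl1701 had 0.39, -0.25 and -0.24 in rad3-deleted cells, against 0.56, 0.54 and 0.46 in cdc25-22 cells, a difference of -0.55 (adjusted p = 0.0425). Rad3-deleted replicate 1 lay near the cdc25-22 values there. The gene rpl42, known in yeasts as a site of cycloheximide resistance mutations, had -0.23, -0.19 and -0.55 in rad3-deleted cells, against 0.08, 0.45 and 0.01 in cdc25-22 cells (difference -0.50, adjusted p = 0.0404). The gene rpl13, which lies near the small nucleolar RNA gene snoR39a, had -0.03, -0.28 and -0.39 in rad3-deleted cells, against 0.17, 0.11 and 0.29 in cdc25-22 cells (difference -0.42, adjusted p = 0.0394). The arrays of the strains did not overlap in these genes.

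Among the largest differences that did not pass, rpl1801 was at 0.32 (95% interval 0.05 to 0.59) and rpl1101 at -0.53 (95% interval -1.02 to -0.03). The next largest in the positive direction were rps2202, rpl1102, rpl3001 and rpl3601, each between 0.18 and 0.20. The count of lower genes was 1 when any 1 array was left out of cdc25-22 replicates 1 and 2 or rad3-deleted replicates 2 and 3, and 10 without rad3-deleted replicate 1. Shares of all genes in these reduced fits are not given. Differences of rpl3602 and rpl35 passed without any 1 array. Of the genes called between the strains, only rpl13 had more than 2 probes.

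**Figure D2:**
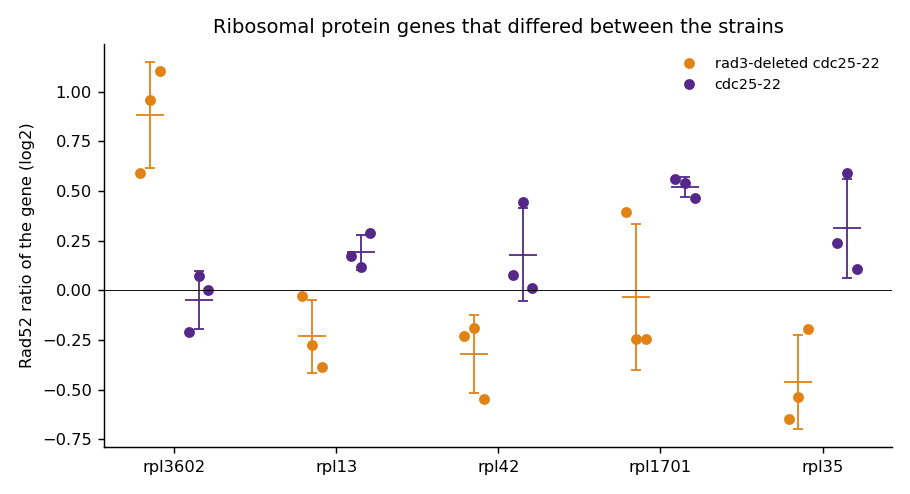
Log2 Rad52 ratio of the 5 ribosomal protein genes that differed between the strains, with rad3-deleted arrays (orange, left) and cdc25-22 arrays (purple, right) of each gene. Points are arrays, bars the mean and whiskers 1 SD (n = 3); rpl3602 is higher in rad3-deleted cells, and rpl13, rpl42, rpl1701 and rpl35 are lower.

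Along the genes, the mean Rad52 ratio was higher toward the end of the gene and in the 500 bp beyond it than before the start, in both strains. This shape was seen in the values before it was measured further. The probes in the 250 bp before the start averaged -0.09 ± 0.01 in rad3-deleted and -0.06 ± 0.03 in cdc25-22 cells (SD, n = 3 arrays, 73 probes). The last of 4 equal stretches of the gene averaged 0.18 ± 0.16 in rad3-deleted and 0.39 ± 0.08 in cdc25-22 cells (58 probes). The 250 bp after the end averaged 0.19 ± 0.17 and 0.38 ± 0.09 (64 probes), and the next 250 bp 0.17 ± 0.11 and 0.25 ± 0.06 (61 probes). Beyond those 500 bp, the next 250 bp were back at -0.09 ± 0.08 in rad3-deleted and 0.05 ± 0.07 in cdc25-22 cells. In the other genes the 4 stretches, first to last, averaged -0.01, -0.05, -0.02 and 0.03 in rad3-deleted cells and -0.07, 0.01, 0.05 and 0.08 in cdc25-22 cells, and the 250 bp after the end averaged 0.10 and 0.11.

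The distance between the strands varied along the gene. In the 250 bp before the start, minus-strand genes averaged -0.20 ± 0.13 in rad3-deleted and -0.09 ± 0.08 in cdc25-22 cells. Plus-strand genes averaged 0.01 ± 0.12 and -0.04 ± 0.10 there. In the first of the 4 stretches, minus-strand genes averaged -0.08 ± 0.12 in rad3-deleted and 0.10 ± 0.02 in cdc25-22 cells, and plus-strand genes -0.13 ± 0.10 and 0.06 ± 0.09. In the last stretch of the gene, minus-strand genes averaged 0.44 ± 0.18 in rad3-deleted and 0.60 ± 0.14 in cdc25-22 cells. Plus-strand genes averaged -0.06 ± 0.23 and 0.20 ± 0.06, so in rad3-deleted cells they were no higher there than before the start. In the 250 bp after the end, minus-strand genes averaged 0.25 ± 0.09 and 0.44 ± 0.08, and plus-strand genes 0.14 ± 0.23 and 0.34 ± 0.09. Rad3-deleted replicate 3 was the exception behind the plus-strand genes, at -0.09 against 0.37 and 0.14 on replicates 1 and 2. Of the probes in those 250 bp, 37.5% lay inside another protein-coding gene. The share of G+C under the probes was 36.9% before the start, 35.3% in the last stretch and 36.3% after the end, and the input channel averaged 0.50 in rad3-deleted and 0.52 in cdc25-22 cells after the end, against -0.08 and -0.07 before the start.

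**Figure D3:**
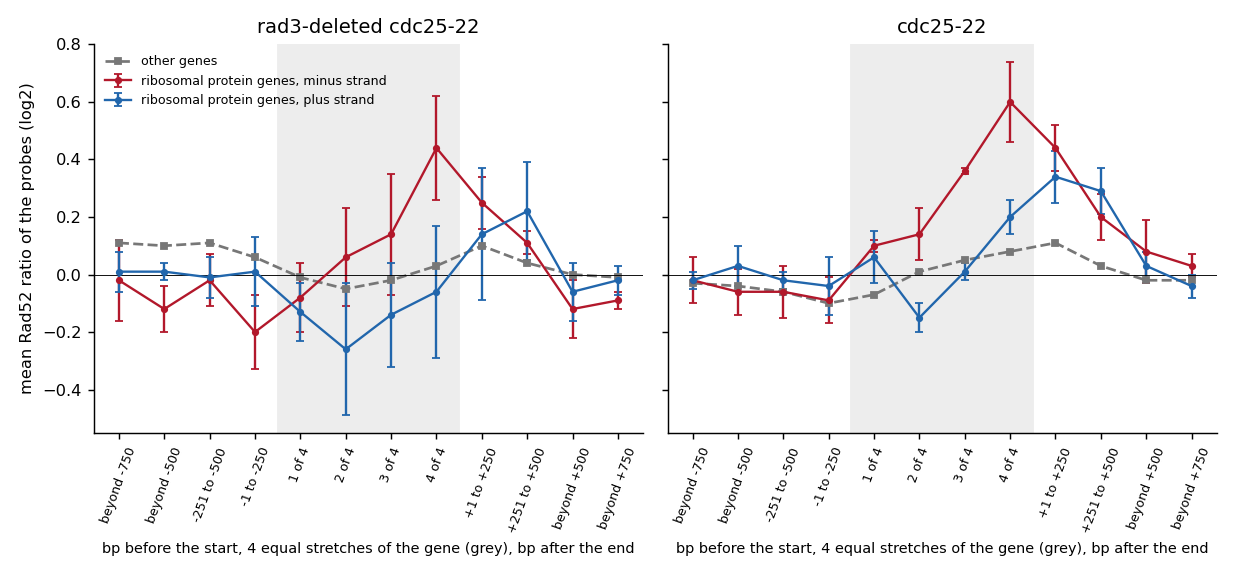
Mean log2 Rad52 ratio of probes before, inside (shaded, in 4 equal stretches) and after the ribosomal protein genes, read in the direction of transcription, in rad3-deleted cells (left) and cdc25-22 cells (right). Red is the minus strand, blue the plus strand, whiskers 1 SD over 3 arrays and grey squares the other genes; the last stretch of minus-strand genes averaged 0.44 in rad3-deleted and 0.60 in cdc25-22 cells.

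To measure this shape gene by gene, the mean ratio of the probes in the 500 bp before a gene was subtracted from that of the probes in the 500 bp after it. Of the 77 genes, 72 had a probe on both sides, among 3934 genes in all. The median difference of after and before was 0.42, 0.22 and 0.09 on the rad3-deleted arrays and 0.41, 0.38 and 0.42 on the cdc25-22 arrays, against 0.10, -0.02 and -0.08 and 0.17, 0.18 and 0.11 for all genes. The family lay above all genes on each of the 6 arrays. In rad3-deleted cells 55 of 72 values were above 0 (76.4%, against 50.5% of all genes), and in cdc25-22 cells 65 of 72 (90.3%, against 67.8%). The large-subunit median exceeded the small-subunit median by 0.17, 0.19 and 0.20 on the rad3-deleted arrays, and differed from it by -0.02, -0.09 and 0.10 on the cdc25-22 arrays. This subunit difference was not tested. By strand, the medians were 0.31 (minus) and 0.20 (plus) in rad3-deleted cells and 0.41 and 0.38 in cdc25-22 cells.

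In rad3-deleted cells 8 of 72 genes were higher after than before (11.1%, with 5.54% of all genes called) and 0 were lower (with 6.56% called). In cdc25-22 cells 6 were higher (8.33%, with 3.53% called) and 0 were lower (with 0.356% called). At an unadjusted p under 0.05, limma gave 19 higher and 2 lower in rad3-deleted cells (with 13.9% and 14.5% of all genes) and 33 higher and 0 lower in cdc25-22 cells (with 18.6% and 3.89% of all genes). Between the strains 0 of the 72 differed by limma (with 0.178% of all genes called higher and 1.63% lower), with 2 higher and 3 lower at an unadjusted p under 0.05 (2.62% and 12.8% of all genes). With the slide as a block, 15 genes were higher in cdc25-22 cells, with the share of all genes under the block not given. The cdc25-22 count was 0 without its replicate 1 or 3 and 1 without its replicate 2, and the rad3-deleted count was 2, 3 and 0 without its replicates 1, 2 and 3 and 5 without cdc25-22 replicate 1. Shares of all genes in these reduced fits are not given either.

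Named genes show the size of the step. Their values rest on few probes: of the genes named here, only rpl1702, rpl1802 and rpl2301 had more than 1 probe on each side. The gene rps2, whose product uS5 stands at the entry of messenger RNA, had steps of 1.26, 0.78 and 1.17 in rad3-deleted cells and 1.44, 0.42 and 2.11 in cdc25-22 cells. It passed in both strains (limma adjusted p = 0.0203 and 0.0147), as did rpl42, at 0.84 ± 0.31 in rad3-deleted and 0.81 ± 0.23 in cdc25-22 cells, and rpl35A01, at 0.69 ± 0.20 and 0.80 ± 0.17. In rad3-deleted cells the other 5 were rpl502 (1.08 ± 0.40), rpl701 (0.87 ± 0.16), rpl1702 (0.76 ± 0.18), rpl3202 (0.75 ± 0.15) and rpl402 (0.69 ± 0.21). In cdc25-22 cells the other 3 were rpl1802 (1.07 ± 0.31), rpl2301 (0.98 ± 0.32) and rpl2502 (0.79 ± 0.04), whose product uL23 is the docking site of chaperones and the signal recognition particle at the tunnel exit.

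The step was split by the direction of the next gene. For 35 genes with a convergent neighbour behind them the median step was 0.27 in rad3-deleted and 0.42 in cdc25-22 cells, and for 37 with a tandem neighbour 0.21 and 0.36. Among all genes the convergent ones had 0.04 and 0.21 and the tandem ones -0.03 and 0.08. A further 37 ribosomal protein genes had flank probes but too few probes inside to be counted in the 77. Their median step was 0.58, 0.42 and 0.33 on the rad3-deleted arrays and 0.49, 0.47 and 0.57 on the cdc25-22 arrays, above 0 in 35 of 37 genes in rad3-deleted and 36 of 37 in cdc25-22 cells.

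**Figure D4:**
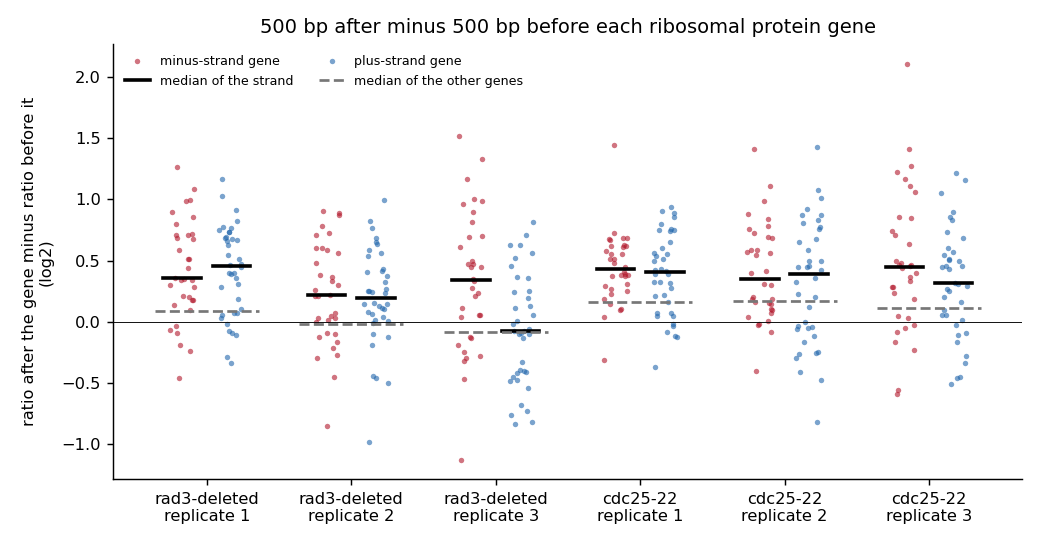
Mean log2 Rad52 ratio in the 500 bp after minus that in the 500 bp before each of 72 ribosomal protein genes, by array, rad3-deleted on the left and cdc25-22 on the right. Red points are minus-strand and blue points plus-strand genes, black bars their medians and dashed grey lines the median of the other genes; medians of both strands together were 0.42, 0.22 and 0.09 in rad3-deleted and 0.41, 0.38 and 0.42 in cdc25-22 cells.

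The gene body was also set against both flanks together. Of 75 genes with at least 2 flank probes within 500 bp, 1 was higher in the body in rad3-deleted cells (1.33%, with 1.16% of all genes called) and 4 were lower (5.33%, with 3.21% called). In cdc25-22 cells 0 were higher (with 0.0741% called) and 0 lower (with 0.247% called), and between the strains 0 and 0 (with 0.0% and 0.0% called). Limma's unadjusted p was under 0.05 for 10 higher and 9 lower in cdc25-22 cells (with 7.9% and 6.76% of all genes) and for 1 higher and 4 lower between the strains (with 1.56% and 5.92% of all genes). The median was -0.08 in rad3-deleted and 0.04 in cdc25-22 cells, beside -0.07 and 0.02 for all genes. With the slide as a block the counts were 5 higher and 7 lower in rad3-deleted cells and 3 higher and 1 lower in cdc25-22 cells. The shares of all genes under the block are not given.

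The gene called higher was rpl702, with 0.55, 0.46 and 0.88 in rad3-deleted and 0.40, 0.46 and -0.08 in cdc25-22 cells (limma adjusted p = 0.0148 in rad3-deleted cells). The 4 lower ones in rad3-deleted cells were rps27 (-0.62 ± 0.34), rpl15 (-0.57 ± 0.57), rpl13 (-0.56 ± 0.07) and rpl102 (-0.48 ± 0.14), all on the plus strand. The count of lower genes was 0 without rad3-deleted replicate 3, 2 without its replicate 1 and 1 without cdc25-22 replicate 1, with the shares of all genes not given. After rpl702, the highest body values in rad3-deleted cells were those of rpl1701 (0.53 ± 0.44), rpl35A01 (0.43 ± 0.03) and rps601 (0.40 ± 0.15), which did not pass. The largest body values in cdc25-22 cells were those of rps3 (0.67 ± 0.46), rps601 (0.58 ± 0.31), rpl1701 (0.57 ± 0.38) and rps402 (0.51 ± 0.29), all on the minus strand, and none passed without the block. The product of rps601, S6, is the ribosomal protein phosphorylated in response to nutrients through TOR signalling. With the block, rps3, rps601 and rpl1701 passed in cdc25-22 cells (adjusted p = 0.0362, 0.0226 and 0.0389), and rps601, rpl1701 and rpl35A01 passed in rad3-deleted cells (adjusted p = 0.0368, 0.0218 and 0.0359).

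Copies of the same protein often differed in their Rad52 ratio. The 77 genes hold 25 families with at least 2 measured copies, which give 27 pairs with 72.1% to 94.2% identical coding bases (median 87.3%). Probes were 45 to 60 bases long. In their coding sequence 3 pairs shared an identical run of at least 60 bases: rpl1101 with rpl1102, rpl501 with rpl502 and rps401 with rps403. At the length of the shortest probe it was 5 pairs, with rpl1901 and rpl1902 (50 bases) and rps1601 and rps1602 (53 bases) added. Probes of these pairs could take up signal from both copies. The median size of the difference between copies was 0.32 in rad3-deleted and 0.29 in cdc25-22 cells, against 0.27 and 0.21 for genes of different families. Identity and size of the difference had Spearman's rho of 0.24 in rad3-deleted and 0.03 in cdc25-22 cells across the 27 pairs, which share arrays and, in part, genes.

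The difference between copies went with strand. In 18 pairs the copies lie on opposite strands, and the minus-strand copy had the higher mean in 14 of 18 pairs in rad3-deleted and in 18 of 18 in cdc25-22 cells. It was higher on all 3 arrays in 11 and 14 pairs. The median of minus-strand minus plus-strand copy was 0.39 in rad3-deleted and 0.36 in cdc25-22 cells. In the 9 pairs on the same strand the median size of the difference was 0.15 and 0.12, against 0.45 and 0.36 in opposite pairs.

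The widest pairs are given by strand. For rpl32, rpl3202 (minus strand) had 0.64 in rad3-deleted and 0.46 in cdc25-22 cells, and rpl3201 (plus strand) -0.22 and -0.08. For rpl4, rpl402 (minus) had 0.41 and 0.50, and rpl401 (plus) -0.06 and -0.10. For rpl5, rpl502 (minus) had 0.37 and 0.34, and rpl501 (plus) -0.30 and -0.00. Also wide in cdc25-22 cells were rps16, at 0.30 for rps1602 (minus) and -0.22 for rps1601 (plus), and rps4, at 0.39 for rps402 (minus) and -0.09 for rps403 (plus). The plus-strand copy was higher in 4 pairs in rad3-deleted cells. These included rpl36, where rpl3602 (plus) had 0.88 and rpl3601 (minus) 0.22, and rpl11, where rpl1102 (plus) had 0.15 and rpl1101 (minus) -0.47. Both are among the 4 widest families there. The other exceptions were rpl1, with 0.24 for rpl102 (plus) and 0.22 for rpl101 (minus), and rpl27, with 0.01 for rpl2702 (plus) and -0.02 for rpl2701 (minus). The narrowest in rad3-deleted cells were rpl1 and rpl27, with differences of 0.02 and 0.04 in size, and in cdc25-22 cells rpl17 and rpl18, with 0.01 and 0.08. Both copies of rpl17 lie on the minus strand and both of rpl18 on the plus strand.

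**Figure D5:**
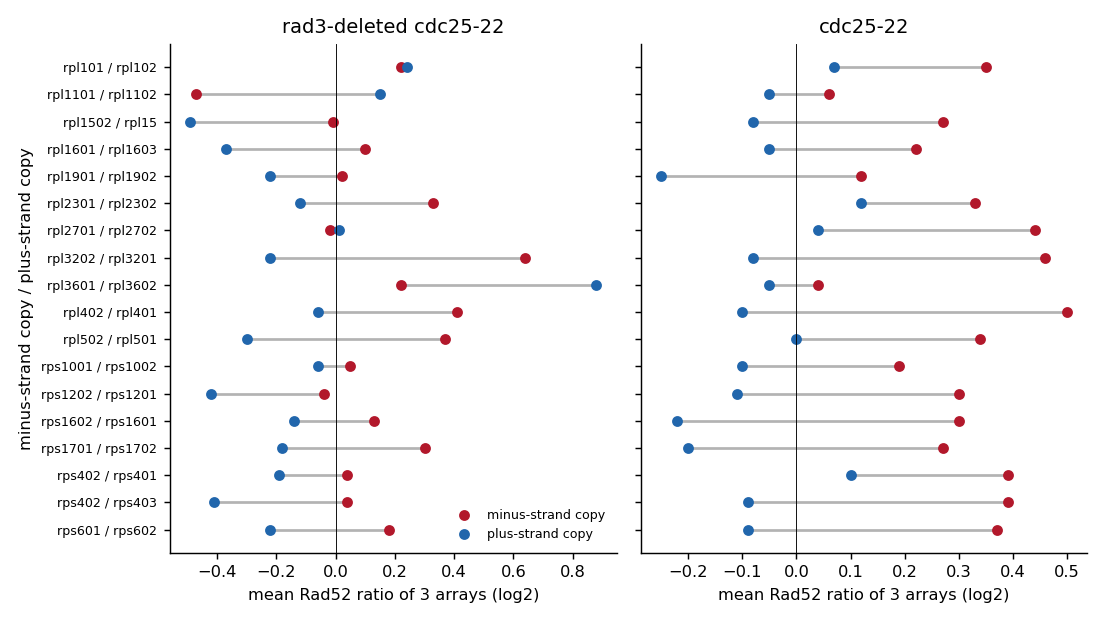
Mean log2 Rad52 ratio (3 arrays) of the 2 copies in each of the 18 ribosomal protein gene pairs on opposite strands, rad3-deleted on the left and cdc25-22 on the right. Red is the minus-strand and blue the plus-strand copy; red lies right of blue in 14 pairs in rad3-deleted and in all 18 in cdc25-22 cells.

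Other features of the genes went with the ratio less. The family is short (median 751 bp, against 1836 bp for all genes) and rich in G+C (42.32%, against 36.81%), and 40 of the 77 genes rest on 2 probes. Genes with exactly 2 probes had medians of -0.05 in rad3-deleted and 0.11 in cdc25-22 cells, and those with more -0.03 and 0.19. An AT-rich island, a feature of most replication origins of this yeast, lay within 2 kb of 14 ribosomal protein genes (18.2%, against 18.6% of all genes). Those 14 had medians of 0.12 in rad3-deleted and 0.09 in cdc25-22 cells, against -0.06 and 0.19 for the other 63. Over all genes, the 768 near an island had medians of 0.16 and -0.01, against -0.07 and 0.0 for the other 3357. The lean in rad3-deleted cells was thus not particular to the family. The 46 genes with an intron had medians of -0.01 and 0.18, and the 31 without -0.07 and 0.12. The 49 genes with HomolD had medians of -0.06 in rad3-deleted and 0.18 in cdc25-22 cells, and the 28 without it 0.02 and 0.18. The 25 with the middle of HomolE had -0.03 and 0.25, and the 52 without it -0.04 and 0.15. The 7 genes with a tRNA, snRNA or snoRNA gene within 1 kb had 0.07 and 0.29, against -0.06 and 0.13 for the rest.

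Related genes of the translation apparatus were counted by function, beside the shares of all genes called: 20.1% higher and 20.6% lower in rad3-deleted cells, 2.01% and 0.267% in cdc25-22 cells, and 10.7% and 5.12% between the strains. Of the 7 acidic stalk proteins, which recruit elongation factors to the large subunit, 5 were measured, and 2 were higher in rad3-deleted cells and 1 in cdc25-22 cells. The cdc25-22 call was rpp0, at 0.28 ± 0.20 in rad3-deleted and 0.50 ± 0.19 in cdc25-22 cells. Of 39 mitochondrial ribosomal protein genes, which serve another ribosome, 34 were measured. In rad3-deleted cells 9 were higher and 4 lower, in cdc25-22 cells 0 and 0, and between the strains 3 were higher and 1 lower. Their medians were 0.03 in rad3-deleted and -0.01 in cdc25-22 cells. Of 19 genes of ribosome biogenesis and ribosomal transcription, 13 were measured: 2 were higher and 5 lower in rad3-deleted cells, 1 was higher in cdc25-22 cells, and 2 were lower between the strains. The nucleolar methylase gene fib1 was the one called in cdc25-22 cells, with 0.23 ± 0.01 in rad3-deleted and 0.58 ± 0.19 in cdc25-22 cells. Of 7 translation elongation factor genes 2 were measured, and neither passed.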

How the data were processed

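Rad52 immunoprecipitate (green) and input (red) were measured on 6 two-colour 44 thousand-feature tiling arrays, 3 per strain. The files hold spot intensity values that, per the file headers and the submitters' processing notes, Agilent Feature Extraction 10.7.3.1 extracted; background had been subtracted from the processed signals, and the dyes were scaled linearly to each other. The deposited value table gives the immunoprecipitate over input as a linear ratio, with scale and direction found by comparison with the scanner files; its column medians were 0.978, 0.962, 0.98 (rad3-deleted) and 0.993, 0.998, 1.01 (cdc25-22). Of its columns, 5 equal a file on 42641 probes within 0.001 log2, with replicates 1 and 2 exchanged between the strains. The log2 ratio of green over red was centred per array on the median nuclear probe, without control and outlier-marked spots. Gene values are means of at least 2 probes. The headers name an older build; positions matched ASM294v3 within 1 bp in 213 of 214 segments of 50 kb used.

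Moderated tests over all genes came from limma 3.58.1 in R 4.3.3, in a model with 1 mean for each strain, adjusted by Benjamini-Hochberg at 0.05. The fit was tested on simulated data. Other steps used pandas 2.3.3 and numpy 2.4.6 in Python 3.11.15, and figures matplotlib 3.10.9. Arrays of the same number shared a slide. Deviations from the strain means correlated at 0.254, 0.150 and 0.101 for numbers 1, 2 and 3, against -0.220 to 0.003 for unlike numbers. Deviations within a strain sum to 0, so the values for unlike numbers are not independent of those for like numbers. The number was used as a block in an alternative fit, and tests given without mention of the block do not use this pairing. Slides 1 and 2 were extracted with the CGH and slide 3 with the ChIP protocol of the software. Alternatives covered file placement, the value table, normexp background on median signals, scaling, filters, G+C, flank width and left-out arrays. The normexp alternative used median signals because the files hold no mean signal. Coding bases, not proteins, were compared between copies. Members and lists were chosen with earlier results of these data known, and the step from before to after, the strand split and the base-composition fit were added after values were seen. Genes named are, per strain, the 6 highest and 4 lowest, the 6 most positive and 4 most negative differences, the 4 highest body values, and the called genes (the 10 with the smallest p where more passed). The number of arrays limits the precision. Families named are the 4 widest and 2 narrowest per strain; rpp0 and fib1 were named after their values were seen.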

Additional observations from a re-analysis of the deposited data

Results flagged for a closer look

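Between the strains, 5 ribosomal protein genes of the large subunit gave a difference that passed limma's test of the difference itself, rad3-deleted minus cdc25-22. The gene rpl3602 differed by 0.93, with rad3-deleted cells above on all 3 slides. The genes rpl35 (-0.77), rpl1701 (-0.55), rpl42 (-0.50) and rpl13 (-0.42) were lower in rad3-deleted cells. The differences of rpl3602 and rpl35 passed without any 1 array. Both genes rest on 2 probes, as do rpl1701 and rpl42, while rpl13 has 4. The input level of rpl35 and rpl1701 was low, at -1.51 and -1.78 in rad3-deleted and -1.21 and -1.48 in cdc25-22 cells. The calls of rpl1701 and rpl13 were each lost in 5, and that of rpl42 in 4, of the 6 fits that left out 1 array. With the files as listed, none of the 5 passed. Body minus flanks, the strain difference was -0.05 for rpl3602, -0.04 for rpl1701 and -0.03 for rpl42. It was -0.62 for rpl35 and -0.38 for rpl13, and none passed on this measure.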

How the results depend on the processing

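Among values of single named genes, 838 kept direction and side of the threshold, 229 kept direction but no longer passed, 36 newly passed and 5 changed sign. All 5 changes of sign came with the files as listed: rpl35 in rad3-deleted cells at 0.21, and the differences of rpl42 (0.13), rpl1701 (0.08), rpl35 (0.57) and rpl3602 (-0.19). With the files as listed the counts inside the genes, after minus before and body minus flanks were 0, the cdc25-22 median was 0.07, the cdc25-22 step 0.35 and the strain difference of the step -0.01. Counts moved with the scaling, and the cause was not tested. The shares of all genes called under the alternative settings, the block included, are not given. These counts therefore cannot be read against a background. In rad3-deleted cells, 14 higher became 7 (at least 3 probes), 9 (one spread for all arrays) and 6 (probes well above background), with 9 to 15 when 1 array was left out. There, 12 lower became 7 and 6 under the first 2 of these, with 5 to 15 when 1 array was left out. In cdc25-22 cells, 7 higher became 4 (at least 3 probes), 0 (normexp), 18 (one spread), 4 (well above background), 23 (quantile) and 0 (value table), with 0 to 10 when 1 array was left out, and 1 was lower under quantile scaling. The cdc25-22 median of 0.18 became 0.13 (normexp), 0.22 (one spread), 0.10 (well above background), 0.23 (quantile), 0.09 (value table) and 0.13 (without genes near an RNA gene). Between the strains, 1 higher became 0 (at least 3 probes), and 4 lower became 1 (at least 3 probes), 2 (base composition removed), 0 (normexp), 1 (well above background), 8 (quantile) and 1 (value table), with 1 to 10 when 1 array was left out. The minus over plus strand median in cdc25-22 cells became 0.19 (normexp), 0.40 (one spread) and 0.41 (quantile), and kept its sign under these. The large minus small subunit median in cdc25-22 cells, 0.05, became -0.03 (base composition removed), 0.01 (median of probes), -0.01 (normexp), -0.06 (well above background), -0.02 (value table) and -0.02 (without genes near an RNA gene), and that in rad3-deleted cells was 0.04 to 0.27 when 1 array was left out.

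After minus before, the cdc25-22 median of 0.41 became 0.24 (1000 bp), 0.45 (250 bp), 0.38 (base composition removed, and flank probes outside genes), 0.36 (normexp), 0.49 (one spread), 0.51 (quantile) and 0.37 (value table), with 0.37 to 0.41 when 1 array was left out. Its 6 higher became 11 (all genes with flank probes), 1 (normexp), 19 (one spread) and 23 (quantile), with 0 to 8 when 1 array was left out, and 1 was lower with 1000 bp. The 8 higher in rad3-deleted cells became 16 (all genes with flank probes), 2 (one spread) and 1 (quantile), with 0 to 8 when 1 array was left out. With 1000 bp, 3 were lower there, and 1 was higher and 2 lower between the strains. Leaving out 1 array gave 0 to 2 lower in rad3-deleted cells and 0 to 1 lower between the strains. Body minus flanks, the cdc25-22 median of 0.04 became 0.13 (1000 bp), -0.04 (250 bp), 0.12 (at least 3 probes), -0.02 (normexp) and -0.07 (well above background). In cdc25-22 cells 3 (1000 bp), 1 (flank probes outside genes), 7 (one spread) and 8 (quantile) were higher and 1 (outside genes), 2 (one spread) and 2 (quantile) lower, with 0 to 1 each when 1 array was left out. In rad3-deleted cells 1 higher became 7 (1000 bp), 2 (median of probes), 4 (normexp), 0 (one spread), 2 (well above background), 2 (outlier-marked spots kept), 0 (quantile) and 2 (value table), with 0 to 3 when 1 array was left out. There, 4 lower became 0 (250 bp), 2 (at least 3 probes), 2 (base composition removed), 1 (outside genes), 1 (median of probes), 0 (one spread) and 0 (quantile), with 0 to 6 when 1 array was left out.

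With the replicate number as a block, the pairing gave 15 higher in cdc25-22 cells, 1 lower in rad3-deleted cells and 1 lower between the strains after minus before. For body minus flanks the block gave 5 higher and 7 lower in rad3-deleted cells and 3 higher and 1 lower in cdc25-22 cells. Beside these and the genes named with the block above, it changed no other call of a named gene. With 3 arrays a strain and 40 of 77 genes on 2 probes, the number of arrays and of probes limits the precision.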
